A study of Mus musculus with 144 samples.

Results

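The genes described are the 50 protein-coding genes of the table whose symbols start with Psma to Psmg followed by a digit, the naming pattern of proteasome subunits, out of 21846 protein-coding genes and 55364 genes in all. They hold the 14 subunits of the constitutive core (Psma1 to Psma7 and Psmb1 to Psmb7), 17 subunits of the regulatory cap (Psmc1 to Psmc6 and 11 Psmd genes), and the 5 immunoproteasome genes Psmb8, Psmb9, Psmb10, Psme1 and Psme2. The other 14 are assembly chaperones, further activators, an inhibitor, tissue-restricted subunits, a near-copy of Psme2 (Psme2b) and Psmc3ip, which carries the name because its product binds that of Psmc3. Messenger RNA was measured in single cells of the retina labelled as microglia, its resident macrophages, which were sorted for the Iba1-EGFP reporter from C57BL/6 mice 20 to 22 months old. The reporter follows Iba1, which macrophages other than microglia also make. All 3 groups share this genotype, strain and age range. They were untreated retina without nerve crush (uncrushed, 54 wells), and retina at day 2 (36 wells) and day 4 (54 wells) after nerve crush, each well sorted to hold 1 cell. No animal is named, so each group counts as 1 sample, and differences are given without a test or p-value.

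The proteasome degrades proteins tagged with ubiquitin. Its barrel-shaped core is built of rings of alpha and beta subunits, and a cap recognises, unfolds and threads the substrate through a ring of ATPases. In cells of the immune system, and under interferon, inducible beta subunits replace the constitutive catalytic ones, and the activator encoded by Psme1 and Psme2 can bind the core in place of the cap. These changes alter the peptides that are made for display on class I molecules, and microglia are among the cells known to use this form.

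Depth was read back from the deposited FPKM values, which scale reads by gene length and by the reads assigned in the well. It ran from 643 to 8065036 recovered reads per well and split into 56 shallow wells of at most 14205 reads and 88 deep wells of at least 60079. All values below are from deep wells, taken as those of at least 50000 reads, which were 39 uncrushed, 25 day 2 and 24 day 4 wells. A gene was called found in a well at 10 or more recovered reads. At least 3 of 12 microglia markers were found in 37 of 39 uncrushed, 21 of 25 day 2 and 22 of 24 day 4 wells. At least 3 of 10 neutrophil markers were found in 3, 9 and 6 wells, and at least 3 of 14 rod markers in 4, 1 and 1. Such wells can be rich in microglia markers too. At day 4, replicates 21, 22, 27 and 33 of plate 2 held 3 neutrophil markers each, beside 12, 12, 11 and 12 microglia markers. They held 38, 40, 26 and 45 proteasome genes. The others, replicates 8 and 11 of plate 1, held 0 and 3 microglia markers. Summed neutrophil RPM had medians of 11.6, 51.8 and 167 and reached 109098, 96602 and 73306. Camp and Ngp were never found. The other 8 were, most widely S100a8 (7, 12 and 8 wells), S100a9 (5, 9 and 8) and Csf3r (7, 11 and 13). Of these 8, 6 were 1 or more higher in mean log2(FPKM + 1) than in uncrushed wells at day 2 and 1 at day 4, against 17.6% and 38.8% of all genes. Summed rod RPM reached 5724, 73628 and 101431. At most 1 of 6 monocyte markers was found in any well. Their summed RPM reached 2097, 110 and 42680. Ccr2 was found in 0, 1 and 3 wells, Chil3 in 1, 0 and 1, Plac8 in 1, 1 and 2, Ly6c2 in 0, 1 and 0, and Vcan and F10 in none. Summed RPM of 5 Müller glia markers reached 5972, 904 and 599, and 1 day 2 well held 3 of them. None of the T cell and endothelial markers was found. Of 4 B cell markers only Cd79b was found, in 1, 2 and 2 wells. Of 5 ganglion cell markers Rbpms was found in 2, 2 and 5 wells and Nefl in 1, 0 and 0. The part of these cells in the differences below was not tested beyond the neutrophil and rod markers. The 18 day 4 wells of plate 1 carry a conflicting day 2 tag and were grouped by their titles, so their day is uncertain. They hold 12 of the 24 deep day 4 wells. Plate 3 holds only 2 deep day 4 wells, with 43 and 198 protein-coding genes found and 0 proteasome genes, so within-plate day 4 values rest on plates 1 and 2.

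Promoter windows from RefSeq (GRCm38.p6, 250 bases before to 50 after the gene start) were present for 42 of the 50 genes, in 45 windows. They were searched on both strands for 4 motifs that known regulators of these genes bind. The antioxidant response element core TGACNNNGC was held by 6 member windows (13.3%), those of Psmb5, Psmb6, Psmc6, Psmd9, Psmd12 and Psme4, against 12.4% of all 32851 windows. The CCAAT box was held by 15 member windows (33.3%) against 37.4% of all. The interferon-stimulated response element core GAAANNGAA was held by 7 (15.6%), those of Psmb3, Psmb4, Psmc2, Psmd4, Psmd9, Psme1 and Psmg4, against 8.56% of all. The kappa B consensus was found in 6 member windows (13.3%) against 8.46% of all. A match is a run of letters, not a shown site. The windows of a pair of catalytic subunits with an antioxidant core, Psmb5 and Psmb6, and of the activator Psme1 with an interferon core are shown because their genes are described below. Each is given 5′ to 3′ along the gene, with the matched letters in capitals (in Psme1 the match reads on the opposite strand).
Psmb5, minus strand, chr14:54617946-54618245: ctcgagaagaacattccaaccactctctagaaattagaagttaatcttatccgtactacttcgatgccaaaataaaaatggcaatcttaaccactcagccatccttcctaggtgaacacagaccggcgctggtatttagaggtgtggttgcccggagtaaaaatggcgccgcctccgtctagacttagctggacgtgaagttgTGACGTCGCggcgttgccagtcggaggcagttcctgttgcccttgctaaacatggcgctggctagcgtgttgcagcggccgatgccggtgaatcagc
Psmb6, plus strand, chr11:70525107-70525406: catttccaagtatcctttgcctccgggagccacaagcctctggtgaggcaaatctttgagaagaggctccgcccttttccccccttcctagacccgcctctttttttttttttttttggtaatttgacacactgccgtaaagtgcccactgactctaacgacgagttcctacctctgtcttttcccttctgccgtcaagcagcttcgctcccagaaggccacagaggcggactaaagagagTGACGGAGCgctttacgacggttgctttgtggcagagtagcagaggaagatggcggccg
Psme1, plus strand, chr14:55578244-55578543: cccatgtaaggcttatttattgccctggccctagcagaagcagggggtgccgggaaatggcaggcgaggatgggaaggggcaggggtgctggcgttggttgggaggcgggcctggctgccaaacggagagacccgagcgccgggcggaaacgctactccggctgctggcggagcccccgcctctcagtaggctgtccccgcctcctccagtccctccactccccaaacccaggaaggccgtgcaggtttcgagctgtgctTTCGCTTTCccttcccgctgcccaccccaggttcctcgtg

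More proteasome genes were found per cell after crush, and they took a larger part of the reads. The number of the 50 genes found in a well ran from 0 to 27 with a median of 4 in uncrushed wells, from 0 to 32 with a median of 9 at day 2, and from 0 to 45 with a median of 14.5 at day 4. At least 20 were found in 1 of 39 uncrushed, 8 of 25 day 2 and 10 of 24 day 4 wells, and at least 35 in 0, 0 and 8 wells. Their summed RPM, reads scaled to 1000000 per well, had medians of 3972 (6.29 to 27582), 6029 (39.5 to 17938) and 10907 (16.95 to 20524). The groups overlapped, and each held wells with nearly none. Within plates 1 and 2 the medians were 5063 and 3317 in uncrushed wells, 6029 and 6541 at day 2, and 11245 and 11657 at day 4. In plate 3 they were 3905, 6259 and, in its 2 day 4 wells, 20.7. With every well thinned to 50000 reads, the median number of members with a read was 6, 10 and 17.

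**Figure D1:**
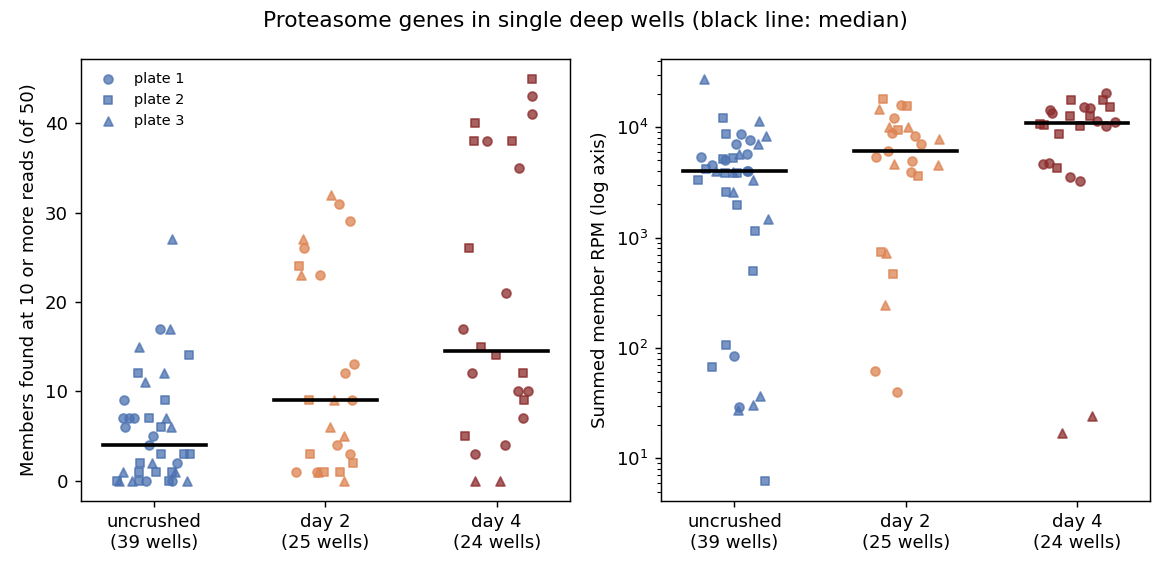
Left, number of the 50 proteasome genes found at 10 or more reads in each deep well; right, their summed RPM on a log axis; each point is 1 well, its shape the plate, and the black line the group median. The median number rises from 4 to 9 to 14.5, and the 2 day 4 wells of plate 3 lie at 0.

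Other genes were also found in more wells after crush, which is the background for every count here. The median number of protein-coding genes found per well was 673 in uncrushed, 945 at day 2 and 1450.5 at day 4. Proteasome genes made up 0.646%, 0.853% and 1.02% of them (medians over wells). Wells with 5000 or more genes with any read numbered 2 of 39, 9 of 25 and 12 of 24. Among wells under 5000 genes the summed proteasome RPM had medians of 3905, 4974 and 13122. The median number of members found there was 3, 3 and 8. Among the gene-rich wells, with only 2 uncrushed wells, the RPM medians were 4522, 8273 and 10533 and the median numbers found 22, 26 and 38. How much of each difference goes with the number of genes per well was not tested. The 8 day 4 wells with at least 35 members held 8329 to 10849 genes with any read. In them 97.3% of the core, 86.8% of the cap and 92.5% of the immunoproteasome genes were found. These wells were picked on the same counts, so high shares follow from the choice.

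**Figure D2:**
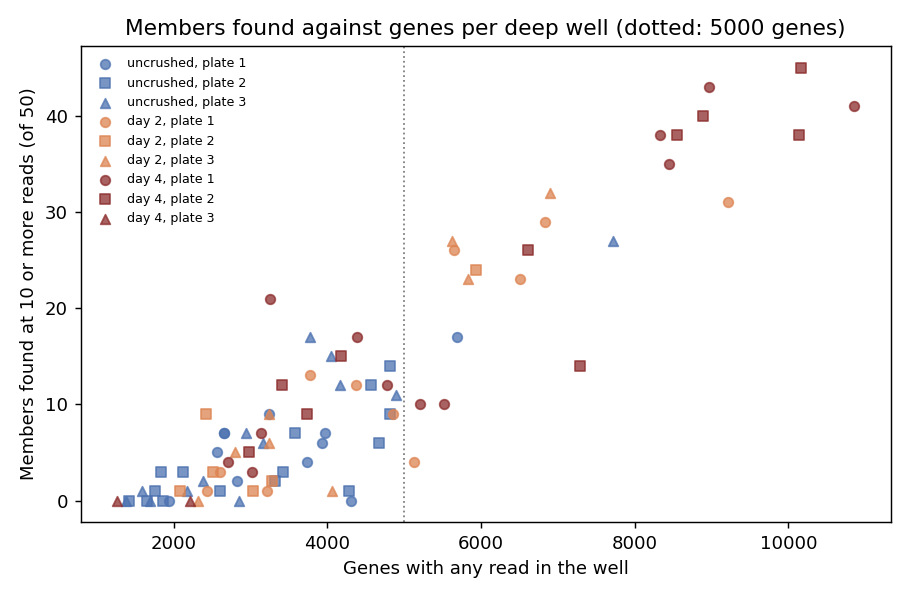
Number of the 50 proteasome genes found (vertical axis) against the number of genes with any read (horizontal axis) in each deep well, coloured by group, with the plate as shape and 5000 genes dotted. All 8 wells with at least 35 members are day 4 wells of plates 1 and 2 with 8329 or more genes.

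Levels of single genes were compared as the difference of mean log2(FPKM + 1) over wells, on which a difference of 1 is a doubling for a gene well above 1 FPKM in every well. The pseudocount shrinks changes between values near 0. For a gene at 0 in most wells, as most members were in uncrushed wells, the difference joins the share of wells holding the gene with its level there, and it can be larger or smaller than the log2 ratio of mean FPKM. The median of that ratio over members was 0.43 at day 2 and 1.46 at day 4 over uncrushed. Of the 50 members, 44 reached FPKM 1 in at least 10% of deep wells, as did 4927 protein-coding genes. The 6 that did not were Psma8, Psmb11, Psmg1, Psmg3, Psmf1 and Psme4. Psmd5, Psmd9, Psmd10 and Psmd13 stayed below FPKM 1 in every uncrushed well (highest 0.427, 0.408, 0.808 and 0.615). They passed through crush wells alone, so a higher value after crush was built in and gives no support. They are kept in the counts and medians below. All of them are among the 43 counted at day 4 over uncrushed. Psmd9 and Psmd13 are among the 20 counted at day 2, and Psmd10 and Psmd13 among the 33 counted in both of plates 1 and 2. How many of all genes passed through crush wells alone was not counted. At day 4, 43 of the 44 were 1 or more higher than in uncrushed wells, where 38.8% of all genes tested were, and Psmc3ip was the exception at 0.36. None was 1 or more lower, against 0.365% of all. The median difference was 1.88 for members and 0.77 for all genes. Within plates 1 and 2 the members' medians were 2.09 and 2.83 and in plate 3 it was −1.11. In both of plates 1 and 2, 33 members were 1 or more higher, against 28.2% of all genes. The share of all genes depends on how widely they were found. With genes limited to those at FPKM 1 in at least 25% of deep wells, 31 of 31 members were 1 or more higher. The share of all such genes was 60%, and the medians were 2.48 for members and 1.25 for all.

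The day 4 count of 43 was more than 1.5 times lower under 6 settings: 25 over all wells (15.2% of all genes), 20 in wells under 5000 genes (13.1%), 24 in wells of 5000 or more (37.9%), 23 with a pseudocount of 10 (11.5%), 27 after subtracting the median over all genes (14.7%), and 28 on the ratio of mean FPKM (35.2%). In wells under 5000 genes the members' median was 0.77 where that of all genes was −0.01, and 9 of the 43 were below 0 (Psma1, Psmb1, Psmb9, Psmd1, Psmd9, Psmd13, Psme2b, Psmg2 and Psmg4). In the gene-rich wells, where 2 uncrushed wells remain, 13 of the 43 were below 0 (Psma1, Psma3, Psma6, Psmb6, Psmb8, Psmc1, Psmc4, Psmc5, Psmd7, Psmd12, Psme1, Psme2 and Psme2b). Members 1 or more lower numbered 5 in the gene-rich wells, 1 in wells under 5000 genes and 1 on the ratio of mean FPKM. The share of all genes 1 or more lower in these settings was not counted. Without wells holding 3 or more neutrophil or rod markers the median was 1.87 (18 day 4 and 32 uncrushed wells). The wells left out held a median of 32 members at day 4 and 6 in uncrushed, and those kept held 13 and 3. Without the 18 wells with a conflicting tag, 12 deep day 4 wells remained. There 40 of the 44 members were 1 or more higher (40.8% of all genes), and the medians were 1.96 for members and 0.76 for all genes.

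At day 2 the difference was smaller. Of the 44 members 20 were 1 or more higher than in uncrushed wells, against 17.6% of all genes, and 0 were 1 or more lower, against 0.934%. The median was 0.86 for members and 0.36 for all genes, with 1.1598, 0.59 and 0.66 in plates 1, 2 and 3. In each of the 3 plates 18 members were above 0, against 23.4% of all genes. In wells under 5000 genes the members' median was 0.05, that of all genes −0.04, and 3 members were 1 or more higher, against 8.91% of all genes. The count was 13 over all wells (11.2% of all genes), 13 after subtracting the median over all genes (9.42%) and 3 with a pseudocount of 10 (4.79%). On the ratio of mean FPKM it was 15, or 34.1% of members, close to the 33.02% of all genes. In that setting 6 members were 1 or more lower, and the share of all genes 1 or more lower was not counted.

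Between the crush groups, 25 members were 1 or more higher at day 4 than at day 2, against 20.8% of all genes, and 0 were 1 or more lower, against 2.13%. The median was 1.09 for members and 0.41 for all genes. Plates 1 and 2 gave 0.94 and 2.37, and plate 3 gave −2.11. The count was 8 over all wells (6.68% of all genes), 13 with a pseudocount of 10 (4.87%) and 16 after subtracting the median over all genes (10.5%). It was 16 on the ratio of mean FPKM (25.7%), 14 without plate 2 (11.9%) and 15 without the wells of 3 or more neutrophil or rod markers (13.9%). Without the 18 wells with a conflicting tag it was 21 (25.8%), and the medians were 0.98 for members and 0.39 for all genes. With genes limited to those at FPKM 1 in at least 25% of deep wells, 18 of 31 members (58.1%) were 1 or more higher. The share of all such genes was 32.5%, and the medians were 1.13 for members and 0.59 for all. Members 1 or more lower numbered 3 without plate 2, 3 without those marker wells, 2 on the ratio of mean FPKM and 1 without plate 1. Wells under 5000 genes and wells of 5000 or more genes each gave 3. The share of all genes 1 or more lower in these settings was not counted.

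**Figure D3:**
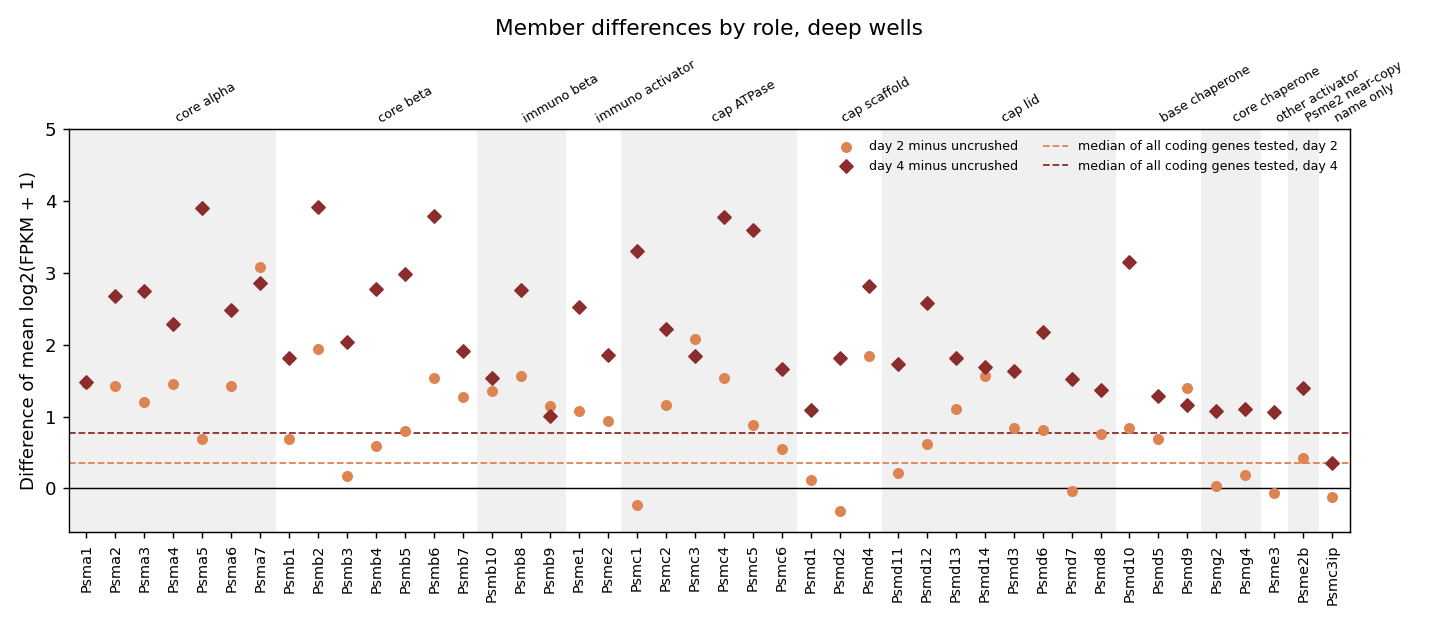
Difference of mean log2(FPKM + 1) from uncrushed wells for the 44 members that passed the filter, ordered by role, at day 2 (circles) and day 4 (diamonds); dashed lines are the medians over all protein-coding genes tested. All but 1 of the day 4 points lie above 1, and Psmd2 is the lowest point at day 2 with −0.31.

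The difference lay more in the share of wells holding a gene than in the level where it was found. Every one of the 44 members was found in a larger share of day 4 than uncrushed wells, as were 94.9% of all genes. For Psmd5, Psmd9, Psmd10 and Psmd13, which passed the filter through crush wells alone, a gain after crush was built in. The median gain was 30.3 percentage points for members and 18.3 for all genes. Day 2 exceeded uncrushed for 43 members (81.6% of all genes) and day 4 exceeded day 2 for 43 (85.5% of all genes). For the 33 members found in at least 3 wells of both groups, the median FPKM in the wells with the gene differed by a median log2 ratio of −0.27 between day 4 and uncrushed, and of −1.17 over the 3052 such genes.

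**Figure D4:**
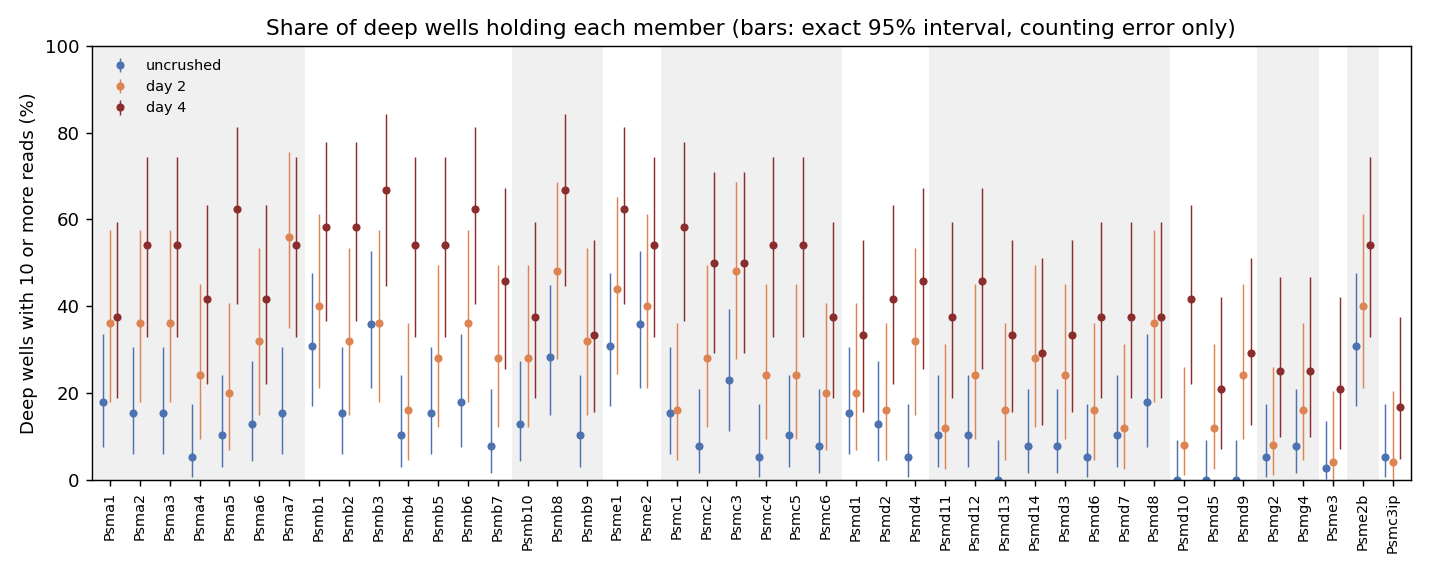
Share of deep wells with 10 or more reads of each member in the 3 groups, ordered by role as in the plot of differences, with exact Clopper-Pearson 95% intervals that cover counting error only. The day 4 share is the highest for 43 of the 44 members, and Psma7 is highest at day 2 with 56.0%.

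All 50 members were at FPKM 0 in at least 1 deep well of each group, so every range below starts at 0 and the groups overlap for every gene. FPKM values are given as the median and the highest well.

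Among the constitutive core genes, 9 of 14 were 1 or more higher at day 2, 14 of 14 at day 4 over uncrushed and 10 of 14 at day 4 over day 2. The shares over all genes tested were 17.6%, 38.8% and 20.8%. The class medians were 1.34, 2.71 and 1.40, and for day 4 over uncrushed the plates 1 and 2 gave 2.65 and 3.28. In wells under 5000 genes the day 2 median was 0.29. The alpha subunits form the outer rings that gate the barrel. Psma5 showed the largest alpha difference at day 4. Its FPKM had a median of 0 and a highest value of 1409 in uncrushed wells, 0.453 and 309 at day 2, and 57.4 and 1306 at day 4. The shares of wells holding it were 10.3% (95% interval 2.87 to 24.2), 20.0% (6.83 to 40.7) and 62.5% (40.6 to 81.2). The day 4 difference was 3.90, from mean log2 levels of 0.97 ± 2.64 to 4.86 ± 3.85 (SD over 39 and 24 wells). At day 2 it was the smallest of the alpha genes with 0.68. Reads of Psma5 may be shared with its processed pseudogene Psma5-ps, found in 4, 3 and 13 wells.

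Psma7 was the member with the largest day 2 difference. Its FPKM had a median of 0 and a highest value of 443 in uncrushed wells, 48.1 and 928 at day 2, and 64.7 and 697 at day 4. Deep wells holding it numbered 6 of 39, 14 of 25 and 13 of 24. The differences from uncrushed were 3.08 at day 2 (3.89, 1.44 and 3.21 in plates 1 to 3) and 2.86 at day 4, and day 4 minus day 2 was −0.21. Psma1 had the smallest alpha difference at day 4 with 1.48 and was at 1.47 at day 2. In uncrushed wells 94.1% of its summed FPKM came from 1 well at 9333, and the ratio of mean FPKM puts day 4 below uncrushed (−1.62 on the log2 scale). The differences of Psma2, Psma3, Psma4 and Psma6 ran from 2.29 to 2.75 at day 4 and from 1.20 to 1.45 at day 2. The day 2 value of Psma2 came from plate 1 (4.404, −1.07 and −0.21 in plates 1 to 3) and was −0.47 without it. Psma3 and Psma6 were below 0 at day 2 in plate 2 (−0.05 and −1.53), and in the gene-rich wells they were at −0.43 and −1.85 at day 4.

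The beta subunits form the inner rings, and Psmb5, Psmb6 and Psmb7 carry the constitutive catalytic sites. Psmb2, a beta subunit without a catalytic site, had the largest difference of all members at day 4, at 3.91. Its FPKM had a median of 0 and a highest value of 1410 in uncrushed wells, 1.64 and 3008 at day 2, and 191 and 3290 at day 4. It was also the largest beta difference at day 2 with 1.94. Psmb1 had the smallest beta difference at day 4 (1.82) and Psmb3 at day 2 (0.18, with −0.47, −1.50 and 2.35 in plates 1 to 3). Psmb3 was the core gene most widely found in uncrushed wells, in 14 of 39, and was found in 9 of 25 at day 2 and 16 of 24 at day 4. Psmb4 differed by 2.78 at day 4 and 0.59 at day 2.

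Of the catalytic genes, Psmb6, whose product has caspase-like activity, had an FPKM median of 0 and a highest value of 1400 in uncrushed wells, 1.05 and 701 at day 2, and 174 and 848 at day 4. The differences were 1.54 at day 2 and 3.79 at day 4. Psmb5, with chymotrypsin-like activity, had medians of 0, 0 and 87.8 and highest values of 1161, 614 and 774, with differences of 0.80 and 2.98. Psmb7, with trypsin-like activity, had medians of 0, 0 and 0.364 and highest values of 207, 340 and 160, with differences of 1.27 and 1.91. The 3 genes were each found most often at day 4, in 15, 13 and 11 of 24 wells. Psmb7 shares 11.8% of its exon bases with Nek6 on the other strand, and whether reads were counted by strand is not given in the sources used here.

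The 5 immunoproteasome genes differed by a median of 1.15 at day 2, 1.85 at day 4 over uncrushed and 0.91 at day 4 over day 2. Of them 4, 5 and 2 were 1 or more higher, against 17.6%, 38.8% and 20.8% of all genes. The day 2 median varied between plates, at 3.04, −0.14 and 0.66, and in wells under 5000 genes it was −0.17. The median for day 4 over uncrushed was −0.17 among gene-rich wells. The median for day 4 over day 2 turned negative without plate 2 (−0.37), without wells of 3 or more neutrophil or rod markers (−0.01) and among gene-rich wells (−0.56). Psmb8, which takes the place of Psmb5, was the inducible subunit with the largest difference. Its FPKM had a median of 0.453 and a highest value of 360 in uncrushed wells, 3.12 and 554 at day 2, and 88.4 and 450 at day 4. It was found in 28.2% (15.001 to 44.9), 48% (27.8 to 68.7) and 66.7% (44.7 to 84.4) of wells. The differences were 1.57 at day 2 and 2.76 at day 4, and 14.7% of its exon bases are shared with the antisense gene Gm20496.

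Psmb9 and Psmb10, which replace Psmb6 and Psmb7, differed between day 4 and day 2 by −0.15 and 0.19. Psmb9 had FPKM medians of 0, 0 and 0.0314 and highest values of 434, 516 and 560, with differences of 1.15 at day 2 and 1.004 at day 4. The day 4 value lies at the size counted. It was 0.35 in plate 1 and 2.52 in plate 2, −0.06 without plate 2, and −0.06 in wells under 5000 genes, where the day 2 value was −0.17. Psmb9 was found in 4, 8 and 8 wells. Psmb10 had medians of 0, 1.157 and 0.120 and highest values of 1939, 867 and 641, with differences of 1.35 and 1.54. The wells holding Psmb10 were 5, 7 and 9. The activator genes were among the most widely found members in uncrushed wells. Psme1 was found in 12, 11 and 15 wells, with FPKM medians of 0.94, 4.78 and 131 and highest values of 1413, 518 and 1346. Its differences were 1.08 at day 2, which is −0.43 without plate 1, and 2.53 at day 4. Psme2 was found in 14, 10 and 13 wells, with medians of 0.641, 2.29 and 126 and highest values of 753, 644 and 833. Its differences were 0.94 and 1.85. Psme2b, of whose 50-base transcript words 68.7% also occur in Psme2, was found in 12, 10 and 13 wells, in each case together with Psme2, so its reads may be those of Psme2.

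The inducible share within each catalytic pair was taken from mean FPKM, which is per gene length. Psmb8 made up 35.8% of Psmb8 plus Psmb5 in uncrushed wells, 59.4% at day 2 and 46.2% at day 4. Its plate values in uncrushed wells alone ran from 17.6% to 82.6%. Psmb9 made up 23.5%, 23.3% and 12.7% of its pair with Psmb6, and Psmb10 85.7%, 69.4% and 74.3% of its pair with Psmb7. For these pairs the uncrushed plates ran from 10.5% to 50.2% and from 12.9% to 96.6%. The differences between groups lay within this spread between plates.

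In the cap, 6 of 17 genes were 1 or more higher at day 2, 17 of 17 at day 4 over uncrushed and 10 of 17 at day 4 over day 2. The shares over all genes tested were 17.6%, 38.8% and 20.8%. The cap counts over uncrushed include Psmd13, which passed the filter through crush wells alone. The cap medians were 0.81, 1.82 and 1.12, and the day 2 value was −0.22 in wells under 5000 genes. The ATPases Psmc1 to Psmc6 form the ring that unfolds the substrate, and their median difference at day 4 was 2.76. Psmc4 had the largest, 3.78, with FPKM medians of 0, 0 and 53.7 and highest values of 131, 722 and 1310. Wells with 10 or more reads of it were 2 of 39, 6 of 25 and 13 of 24. Psmc3 was the ATPase furthest up at day 2, by 2.07, and stood at 1.85 at day 4, where the log2 ratio of mean FPKM was −0.18. Its FPKM medians were 0, 2.39 and 5.55, its highest values 2708, 3604 and 1094, and it was found in 9, 12 and 12 wells. In contrast Psmc1 was at −0.23 at day 2 and at 3.30 at day 4, with medians of 0, 0 and 53.6 and highest values of 893, 191 and 1728. Psmc6 had the smallest ATPase difference at day 4 with 1.67, and Psmc2 and Psmc5 were at 2.22 and 3.60.

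Psmd1 and Psmd2 encode the scaffolds of the cap base and Psmd4 a receptor for ubiquitin chains. Psmd4 differed by 1.84 at day 2 and 2.82 at day 4. Its FPKM medians were 0, 0.137 and 0.522, its highest values 406, 443 and 443, and it was found in 2, 8 and 11 wells. The scaffolds did not share the day 2 difference. Psmd2 was at −0.31, the lowest of all members, and Psmd1 at 0.12. At day 4 they were at 1.81 and 1.09, the latter −0.79 in wells under 5000 genes.

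The lid removes ubiquitin from substrates before degradation, with Psmd14 as its deubiquitinating enzyme. All 8 lid genes were 1 or more higher at day 4, from 1.37 for Psmd8 to 2.58 for Psmd12, against 38.8% of all genes. At day 2 it was 2 of 8, near the 17.6% of all genes. Psmd13, which is in both counts, passed the filter through crush wells alone. Psmd12 had FPKM medians of 0, 0 and 0.533, highest values of 331, 140 and 489, and was found in 4, 6 and 11 wells. Psmd14 was the highest lid gene at day 2 with 1.56 and stood at 1.68 at day 4. It was found in 3, 7 and 7 wells, with medians of 0, 0.136 and 0.631 and highest values of 242, 849 and 695. Psmd7 was the lowest at day 2 with −0.04 and at 1.52 at day 4. Psmd3, Psmd6 and Psmd11 were at 1.64, 2.18 and 1.73 at day 4. Psmd8 was found in 7, 9 and 9 wells. Psmd13 was found in 0 of 39 uncrushed wells, which allows a share of up to 7.69% (3 wells of 39), and in 4 and 8 crush wells. The exact interval drawn for 0 of 39 in the plot of shares is 2-sided and ends at 9.03%.

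The assembly chaperones of the base were not found in uncrushed wells at all. Psmd5, Psmd9 and Psmd10, which hold ATPase modules before they join the cap, were each found in 0 of 39, with the same limits. They passed the filter through crush wells alone, so a higher value after crush was built in. At day 2 they were found in 3, 6 and 2 of 25 wells, and at day 4 in 5, 7 and 10 of 24. Psmd10, also known as gankyrin, had the largest difference of the chaperones at day 4, 3.15, with plates 1 and 2 at 3.38 and 3.46. Its FPKM reached at most 0.808 in uncrushed wells, 1814 at day 2 and 917 at day 4. The core chaperones Psmg1 to Psmg4 were found in at most 3 uncrushed wells and at most 6 day 4 wells each. Psmg2 and Psmg4 were at 0.04 and 0.18 at day 2 and at 1.07 and 1.11 at day 4.

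Of the remaining members, Psme3, the nuclear activator, was found in 1, 1 and 5 wells and differed by 1.06 at day 4. Psme4, another nuclear activator, was found in 1, 0 and 4 wells. Psmf1, an inhibitor of the core, was found in 2, 1 and 5. The thymus subunit Psmb11 was at 10 or more reads in 0 of 39, 0 of 25 and 0 of 24 wells, which allows shares of up to 7.69%, 12% and 12.5% (3 wells of each; exact 2-sided limits 9.03%, 13.7% and 14.2%), and the testis subunit Psma8 in 1 day 4 well. Psmc3ip was found in 2, 1 and 4 wells, and 21.2% of its exon bases are shared with Mlx on the other strand.

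Ordered by mean FPKM, the first members were Psma1, Psme1 and Psmc3 in uncrushed wells, at 254 ± 1493, 126 ± 276 and 125 ± 463 (SD over 39 wells). At day 2 they were Psmc3, Psmb2 and Psma6, at 305 ± 755, 242 ± 682 and 159 ± 331 (25 wells). At day 4 they were Psmb2, Psme1 and Psma6, at 357 ± 687, 281 ± 387 and 279 ± 545 (24 wells). The SD over wells is larger than the gap between any of these neighbours, so the order within a group is not resolved. Without its highest well Psma1 averaged 15.5 in uncrushed wells.

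Genes that work with the proteasome were taken from lists of known roles. Over all genes tested, 17.6% were 1 or more higher at day 2 and 38.8% at day 4 over uncrushed, with medians of 0.36 and 0.77. Among 14 partner and shuttle genes that passed the filter, 3 were 1 or more higher at day 2, a share near that of all genes, and 9 at day 4, with medians of 0.29 and 1.52. Among the largest at day 4 were Adrm1, a ubiquitin receptor of the cap (2.56, found in 2, 4 and 14 wells), and Usp14, a deubiquitinase bound to the cap (2.51, found in 0, 6 and 11 wells). Of 5 genes of ubiquitin and its activating enzyme, 0 and 3 were 1 or more higher, with medians of 0.65 and 1.67, and Ubb was at 1.94 and Uba1 at 1.87 at day 4.

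Of 5 regulators of proteasome genes, 1 was 1 or more higher at day 2 and at day 4, which is near the share of all genes at day 2 and below it at day 4. This was Nfe2l2, the factor that binds antioxidant response elements, at 1.90 and 1.47. Mafg was at 0.92 and Keap1 at 0.58 at day 4. Nfe2l1, the factor known to restore proteasome genes when the proteasome is blocked, was at −0.19 and was found in only 2, 1 and 2 wells. Of 11 genes of class I loading and its inducers, 2 and 4 were 1 or more higher, about the share of all genes, and their medians of 0.20 and 0.46 were below those of all genes. At day 4 the 4 were the chaperone genes Calr (3.22) and Pdia3 (2.92), the class I heavy chain gene H2-K1 (1.504) and Tapbp (1.15), which were at 1.54, 2.12, 0.83 and −0.36 at day 2. The light chain gene B2m was at −0.70 and −0.11. The peptide transporter genes Tap1 and Tap2 were at 0.17 and 0.98 at day 4, and the interferon factor Irf1 at 0.35.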

How the data were processed

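The authors deposited FPKM values for each gene and well. Per the submitters' processing notes, Trim Galore 0.4.4, Trimmomatic 0.36, cutadapt 1.16, STAR 2.7.2b and featureCounts 1.6.1 were used, with builds GRCm38.p6 and mm10. The deposited gene lengths (in bases) turned FPKM into RPM, which summed to 1000000 per well. The most frequent RPM above 0 was taken as 1 read, and 40.9% of values under 100 were then whole within 0.01, the rest being fractions. There are no molecular identifiers, so intervals cover counting error only.

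Groups follow the titles. Differences are of mean log2(FPKM + 1) over wells of at least 50000 reads, for protein-coding genes that reached FPKM 1 in at least 10% of those wells. No test was made, and 1 or more was the size counted. Fuller values were given, per role, to the members with the largest and smallest differences, to Psmb5 to Psmb10, Psme1 and Psme2, and to the 3 largest of each other list, some of which are not reported here. Values named beyond these were chosen after they were seen. Members, lists and rules were chosen with earlier results of these data known. Thinning used 50000 reads (seed 11). Read recovery and differences were tested on simulated data with whole counts only. Recovery where many values are fractions, as in these wells, was not tested. Doublets were not called. The software was matplotlib 3.10.9, scipy 1.17.1, pandas 2.3.3 and numpy 2.4.6 under Python 3.11.15.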

Additional observations from a re-analysis of the deposited data

How the results depend on the processing

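Over 19 alternatives, 3 of them added after seeing the data (2 on genes per well and 1 on 5 or more neutrophil or rod markers), the members' median kept its direction in each comparison. It ran from 0.047 to 1.498 for day 2 over uncrushed, from 0.77 to 2.93 for day 4 over uncrushed and from 0.42 to 1.65 for day 4 over day 2. A median or single value was taken as moved when it changed by more than the SD of its 3 within-plate values, a rule set after seeing the data in place of a 1.5-fold factor. For day 4 this SD is wide (2.09 for the members' median over uncrushed), since plate 3 has 2 near-empty day 4 wells, so it passes large moves. Counts were taken as moved past 1.5 times. The cause of each move was not tested.

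For day 2 over uncrushed, the members' median was 1.498 with a pseudocount of 0.1, 0.54 with a pseudocount of 10, 0.50 after subtracting the median of all genes, 0.43 as a ratio of mean FPKM, 1.19 and 1.45 without wells of 3 or 5 neutrophil or rod markers, and 0.047 in wells under 5000 genes. The cap median was 1.02, 0.35, 0.45 and 0.39 in the first 4 of these, 0.97 thinned, 0.56 without plate 2, 0.997 without plate 3, 0.97 without wells of 5 markers and −0.22 in wells under 5000 genes, where the core and immunoproteasome medians were 0.29 and −0.17. The ratio of median summed RPM was 2.24 and 2.10 without wells of 3 or 5 markers. Counts of members 1 or more higher were 13 over all wells, 3 with a pseudocount of 10, 13 after subtraction and 3 in wells under 5000 genes. As a ratio of mean FPKM the count was 15, which is not past 1.5 times. There 34.1% of members stood against 33.02% of all genes.

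For day 4 over uncrushed the count was 25 over all wells (15.2% of all genes), 23 with a pseudocount of 10 (11.5%) and 27 after subtraction (14.7%). It was 28 as a ratio of means (35.2%). Wells under 5000 genes gave 20 (13.1%), and wells of 5000 or more, with 2 uncrushed wells, gave 24 (37.9%). For day 4 over day 2 it was 8, 13, 16 and 16 in the same first 4 settings (6.68%, 4.87%, 10.5% and 25.7% of all genes). Without plate 2 it was 14 (11.9%) and without wells of 3 markers 15 (13.9%). The immunoproteasome median was −0.17 in wells of 5000 or more genes for day 4 over uncrushed. Over day 2 it was −0.56 there, −0.37 without plate 2 and −0.014 without wells of 3 markers.

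Single members were followed where the reported difference was 1 or more in size. Settings that change only the filter or the list of members cannot alter such a value. Leaving out the 18 day 4 wells with a conflicting tag cannot alter day 2 over uncrushed. These fixed values are counted in the total, so the share that changed sign is low in part by construction. Of 1671 values of single members, 56 changed sign. For day 2 over uncrushed these were as a ratio of mean FPKM Psma1 (−1.20) and Psma3 (−0.015), without plate 1 Psma2 (−0.47) and Psme1 (−0.43), in wells under 5000 genes Psmc2 (−0.23), Psme1 (−0.45) and Psmb9 (−0.17) and in wells of 5000 or more genes Psmc4 (−1.74), Psma1 (−1.33), Psmb6 (−0.99), Psma6 (−2.10) and Psma3 (−1.14). For day 4 over uncrushed these were as a ratio of mean FPKM Psmd1 (−0.20), Psmc3 (−0.18), Psma1 (−1.62), Psmb10 (−0.0098), Psmg4 (−0.42) and Psmg2 (−0.74), without plate 2 Psmb9 (−0.060), in wells under 5000 genes Psmd1 (−0.79), Psmd9 (−0.0022), Psma1 (−1.12), Psmd13 (−0.031), Psme2b (−0.14), Psmg4 (−0.19), Psmb1 (−0.41), Psmb9 (−0.058) and Psmg2 (−0.52) and in wells of 5000 or more genes Psmc4 (−1.09), Psma1 (−0.28), Psmd7 (−3.01), Psme2b (−0.81), Psmb6 (−0.24), Psmc5 (−0.27), Psmd12 (−2.08), Psma6 (−1.85), Psma3 (−0.43), Psmc1 (−0.32), Psme1 (−0.63), Psme2 (−0.65) and Psmb8 (−0.17). For day 4 over day 2 these were over all wells Psma6 (−0.51), Psmb1 (−0.36) and Psmg2 (−0.14), as a ratio of mean FPKM Psmd7 (−0.078), Psmd6 (−0.31) and Psmg2 (−0.60), without plate 2 Psmc2 (−0.25), without the 18 wells with a conflicting tag Psma6 (−0.57), in wells under 5000 genes Psma2 (−0.11), Psmd6 (−0.30), Psmb1 (−0.17) and Psmg2 (−0.52) and in wells of 5000 or more genes Psmc2 (−0.34), Psme1 (−1.05) and Psmb8 (−0.56). 

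No paired analysis was possible because replicate numbers are accession order only and name no animal. Values within the plates named in the titles, which all 3 groups share, are given in the report. Depth limits the low members: 0 of 39 uncrushed wells allows a share of up to 7.69% (3 wells of 39, exact 2-sided limit 9.03%). In a well thinned to 50000, 1 read stands for 20 RPM. Reads of 1 amplified cell are not independent molecules.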
